A study of Mus musculus with 6 samples.

Results

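The genes described here encode apolipoproteins, lipases and the other proteins that build, remodel and clear lipoproteins. They were chosen by name, with earlier results of these data known, as probe sets with a single annotated gene symbol among 33 listed genes. Of these, 31 had such a probe set, each with exactly 1, out of 35512 probe sets and 19938 named genes in all. Lipc, the hepatic lipase gene, was not analysed here, and Apoc2, the lipoprotein lipase cofactor, lies on a probe set shared with a second symbol and was not used. By role, 4 genes serve assembly, 12 are apolipoproteins, 10 serve remodelling and 5 serve clearance.

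Gene expression was measured in liver on 1-colour microarrays, with 1 array for each of 6 mice. The 3 knock-in mice, numbered KI1, KI3 and KI5, were homozygous for G609G, an allele of the lamin A and C gene Lmna, and the 3 wild-type mice, WT2, WT4 and WT6, carried no such allele. All 6 were females on the C57BL/6 background, 3 months old, and had been without food for 6 h. The allele is carried by every cell of the animal, not by liver cells alone, and changes splicing of the Lmna transcript, and the homozygous mouse models the early-ageing disorder Hutchinson-Gilford progeria.

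The liver packages triglyceride and cholesterol with apolipoprotein B into very low density lipoprotein (VLDL), a particle loaded with lipid in the endoplasmic reticulum (ER) and secreted into blood. Lipases on capillary walls strip its fat, and hepatic receptors and heparan sulphate proteoglycans take up the remnants. High density lipoprotein (HDL) is built around apolipoprotein A-I by sterol export from cells, is reshaped in plasma by lipases and transfer proteins, and returns cholesterol to the liver through a selective uptake receptor.

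Deposited intensities were compared as knock-in minus wild-type with limma on log2(intensity + 16), and a probe set was called changed at a Benjamini-Hochberg adjusted p below 0.05 over the 26634 probe sets tested. Log2 changes carry standard errors, intensities carry standard deviations (SD), and n was 3 mice per genotype throughout. Array medians lay between 97 and 104 and did not separate the genotypes (exact two-sided permutation p = 0.2, the smallest possible being 0.1). Correlations between arrays were 0.988 to 0.995 within a genotype and 0.96 to 0.98 between genotypes. The Lmna probe set read 290, 249 and 258 in knock-in livers, against 282, 267 and 362 in wild-type livers, a log2 change of -0.17 ± 0.13 (limma adjusted p = 0.398), and as it does not separate splice forms it does not check the genotype. In liver tissue, fewer cells of a type and less RNA per cell cannot be told apart.

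All 31 genes passed the filter on dim probe sets. In knock-in livers 13 of them fell and 5 rose, while 13 did not pass the test. Over all probe sets tested, 25.9% were called, 14.9% as higher and 10.9% as lower in knock-in livers, and among the 12207 single-symbol probe sets at or above the median intensity 17.9% were called higher and 17.3% lower. The lipoprotein genes, a list chosen with earlier results of these data known, were called lower at 41.9% and higher at 16.1%. Their median log2 change was -0.26, against 0.03 over all probe sets tested and 0.01 over the bright single-symbol ones, and 22 of the 31 changes were negative. All 3 knock-in mice lay below all 3 wild-type mice for 15 genes and above them for 6, against 17.2% and 23.9% of all probe sets tested, or 41.1% in either direction. Without KI1 or without WT6, 8 genes were called lower, and without KI5 or WT6, 3 were called higher. Of the 18 called genes, 11 were called under every one of the 16 other settings tried: Apobec1, Mttp, Apon, Pltp, Lipg, Abca1, Lrp1, Lsr, Scarb1, Vldlr and Lipa.

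**Figure D1:**
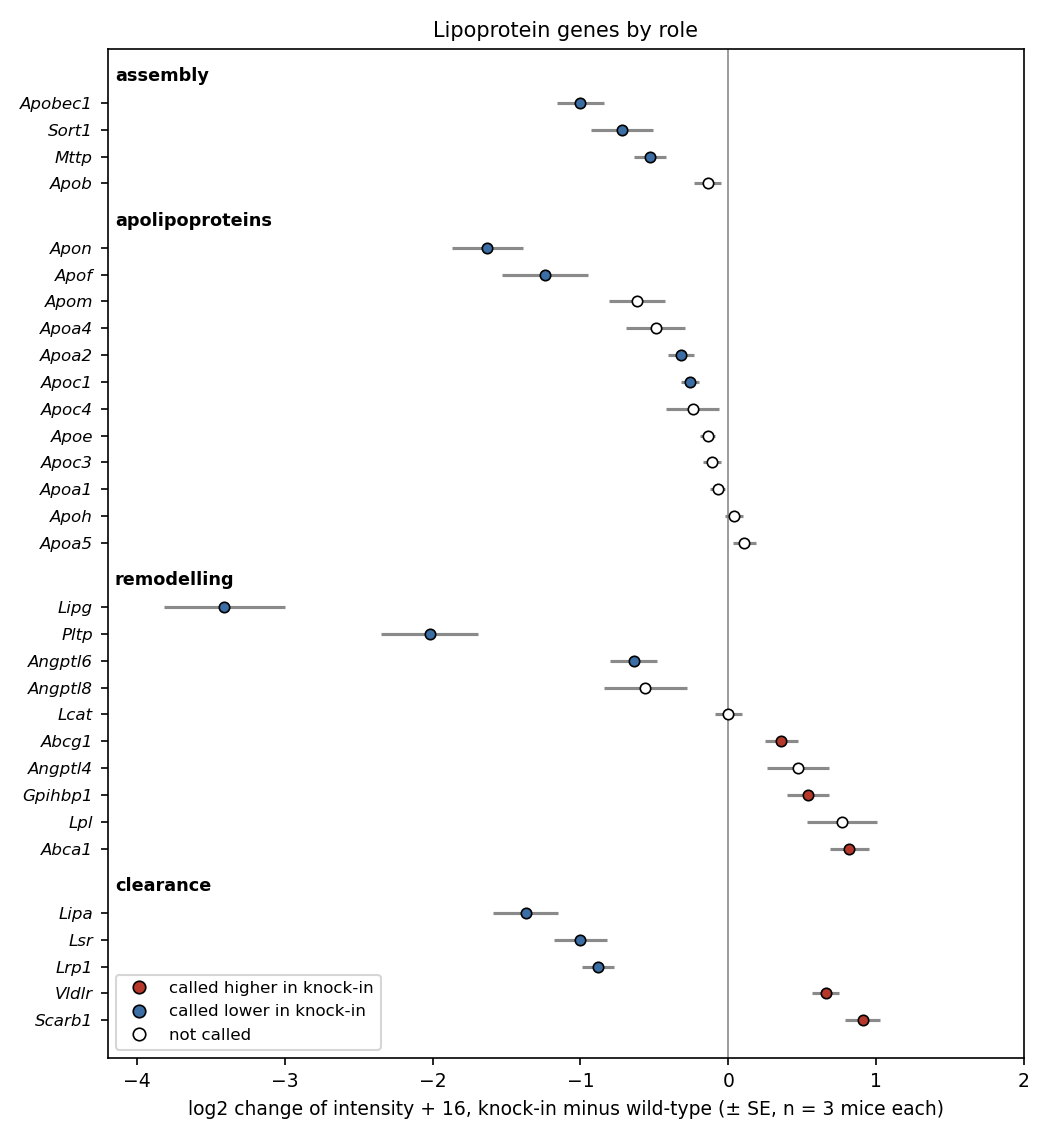
Log2 change of intensity + 16, knock-in minus wild-type (x axis, with standard errors, 3 mice per genotype), for each of the 31 lipoprotein genes grouped by role (y axis), with red for called higher, blue for called lower and white for not called. Lipg lies farthest to the left at -3.41, the classical apolipoproteins lie close to 0, and every one of the 5 clearance genes is called.

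Promoter windows from RefSeq on GRCm38.p6, holding 250 bases before and 50 after a gene's start, were matched by symbol for 23 of the 33 listed genes, with 29 windows in all. They were searched on both strands for 5 short motifs of factors that act on liver metabolic genes. A glucocorticoid receptor half-site (AGAACA) stood in 31% of these 29 windows, against 19% of all 32851 windows. The E-box CACGTG, bound by several basic helix-loop-helix factors, and the forkhead motif GTAAACA each stood in 10.3%, against 7.15% and 3.65%. Windows of the same gene can overlap. The E-box stood only in windows of Abca1 and Apoa5, and the Apoa5 windows overlap and hold the same E-box, at -82 and -107. A hepatocyte nuclear factor 4 motif (CAAAGTCCA) and the cAMP response element TGACGTCA stood in 0 of the 29, against 0.475% and 1.79%. At shares this low a count of 0 is likely in any 29 windows. Only these exact letters were searched, so other spellings of the same sites were not counted, and the 0 does not show that such sites are absent. The 10 windows of genes that fell held the half-site in 2 cases, the 3 windows of genes that rose held it in 2, and the 13 windows of genes not called held it in 4. A match describes letters only. The 4 windows below show 1 gene of each role that was called under every setting and whose window holds a searched motif, in capitals, in the gene's own orientation from 5′ to 3′. Mttp lies at chr3:138143369-138143668 on the minus strand, with the reverse complement of the half-site at -123. Apon lies at chr10:128253881-128254180 on the plus strand, with the half-site at -104. Abca1 lies at chr4:53159846-53160145 on the minus strand, with the E-box at -147 and the half-site at -78. The first of the Vldlr windows lies at chr19:27216234-27216533 on the plus strand, with the reverse complement of the half-site at -18 and 25.
Mttp: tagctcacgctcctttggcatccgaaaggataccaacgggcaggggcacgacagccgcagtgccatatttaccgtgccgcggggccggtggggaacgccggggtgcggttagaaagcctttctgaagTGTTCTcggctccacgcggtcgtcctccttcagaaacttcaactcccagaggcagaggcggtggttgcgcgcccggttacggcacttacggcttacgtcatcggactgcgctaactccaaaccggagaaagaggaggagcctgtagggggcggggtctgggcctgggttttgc
Apon: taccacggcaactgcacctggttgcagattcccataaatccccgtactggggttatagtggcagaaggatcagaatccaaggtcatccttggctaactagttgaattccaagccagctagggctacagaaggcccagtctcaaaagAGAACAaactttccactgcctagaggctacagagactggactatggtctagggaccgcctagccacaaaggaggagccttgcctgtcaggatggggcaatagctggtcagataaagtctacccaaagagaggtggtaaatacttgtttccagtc
Abca1: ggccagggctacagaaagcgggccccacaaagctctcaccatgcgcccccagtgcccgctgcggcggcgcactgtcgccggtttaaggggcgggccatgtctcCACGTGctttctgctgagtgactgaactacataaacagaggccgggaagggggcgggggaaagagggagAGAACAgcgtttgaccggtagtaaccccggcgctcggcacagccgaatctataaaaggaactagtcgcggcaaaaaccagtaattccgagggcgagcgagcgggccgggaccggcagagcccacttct
Vldlr: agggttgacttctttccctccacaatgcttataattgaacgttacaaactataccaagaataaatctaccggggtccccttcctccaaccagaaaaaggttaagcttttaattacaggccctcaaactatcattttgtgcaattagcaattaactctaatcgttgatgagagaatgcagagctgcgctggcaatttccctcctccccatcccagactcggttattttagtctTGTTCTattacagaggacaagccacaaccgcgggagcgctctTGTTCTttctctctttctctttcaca

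Assembly genes fell in knock-in livers, apart from Apob itself. Of 4 genes 3 were called lower and 0 higher by limma, also 0 higher at an unadjusted p below 0.05, which 37.8% of all probe sets reached in either direction. The shares called over all probe sets tested were 10.9% lower and 14.9% higher. The median log2 change of the assembly genes was -0.62. Apobec1 encodes the enzyme that edits Apob mRNA and so lets mouse liver make the short form of apolipoprotein B. It read 276, 324 and 213 in knock-in livers, against 629, 509 and 519 in wild-type livers. Every knock-in value lay below every wild-type value. The means were 271 ± 55.7 in knock-in and 552 ± 66.6 in wild-type livers, a log2 change of -1.0 ± 0.16 (limma adjusted p = 0.00478). Mttp, whose promoter is printed above, encodes the transfer protein that loads lipid onto apolipoprotein B in the ER. Its intensity was 2652, 2811 and 2379 in knock-in livers, against 3402, 3706 and 4265 in wild-type livers. The genotypes did not overlap, and Mttp was 1.44-fold lower in knock-in livers (log2 change -0.53 ± 0.11, limma adjusted p = 0.0122). Sort1 encodes sortilin, which binds apolipoprotein B in the Golgi and steers its traffic. Values were 189, 159 and 198 in knock-in livers, against 417, 224 and 311 in wild-type livers. The wild-type mice were spread more widely than the knock-in mice, and the genotypes did not overlap. Sort1 fell by 0.72 ± 0.21 on the log2 scale (limma adjusted p = 0.04). That call was lost without the filter (adjusted p = 0.0647) and without any 1 of KI1, KI3 and KI5 or of WT2 and WT6 (adjusted p between 0.0696 and 0.099), and over all settings the adjusted p ran from 0.014 to 0.099. Apob, the structural protein of VLDL, read 10346, 10960 and 8947 in knock-in livers, against 11568, 10539 and 11254 in wild-type livers. These ranges overlapped, and the log2 change was -0.14 ± 0.09 with a 95% interval of -0.35 to 0.06 (limma adjusted p = 0.279).

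Among the 12 apolipoproteins 4 fell and 0 rose by limma, against 7 lower and 0 higher at an unadjusted p below 0.05, and the median log2 change was -0.25. Of all probe sets tested, 10.9% were called lower and 14.9% higher, and 37.8% reached the unadjusted level in either direction. The genes that fell furthest were the lesser known Apon and Apof, while the genes of the main structural and exchangeable apolipoproteins changed less or were not called. Several of the latter were among the brightest probe sets, and whether changes are measured in full at that brightness was not tested. Apon encodes apolipoprotein N and is the neighbour of Apof on chromosome 10 in the order of protein-coding genes. It read 913, 1451 and 694 in knock-in livers, against 2763, 3320 and 3111 in wild-type livers. The highest knock-in mouse lay well below the lowest wild-type mouse. Apon averaged 1019 ± 390 in knock-in and 3065 ± 281 in wild-type livers, a 3.11-fold lower level in knock-in livers (log2 change -1.63 ± 0.24, limma adjusted p = 0.00339). Apof encodes apolipoprotein F, known in humans as an inhibitor of lipid transfer between lipoproteins. Its values were 2531, 3890 and 1537 in knock-in livers, against 5911, 5561 and 6157 in wild-type livers. The knock-in mice were spread widely and the wild-type mice narrowly, with no overlap. Apof was 2.36-fold lower in knock-in livers (log2 change -1.24 ± 0.29, limma adjusted p = 0.0187). Without KI1 or without any 1 of the 3 wild-type mice its adjusted p lay between 0.0521 and 0.0606, and over all settings between 0.00168 and 0.0606.

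Smaller falls were measured for an HDL and a VLDL apolipoprotein. Apoa2, the second structural protein of HDL, read 10919, 13992 and 11853 in knock-in livers, against 15106, 14985 and 15471 in wild-type livers. KI3 came closest to the wild-type mice, without overlap. Apoa2 was 1.25-fold lower in knock-in livers (log2 change -0.32 ± 0.09, limma adjusted p = 0.04). It was no longer called after quantile normalization (adjusted p = 0.0578), without the filter (0.0646), without the variance trend (0.0629), or without any 1 of KI1 and KI5 or of the 3 wild-type mice (up to 0.114), within a range over all settings of 0.00357 to 0.114. Apoc1, which slows the uptake and lipolysis of triglyceride-rich particles, read 10112, 10810 and 10477 in knock-in livers, against 12419, 12475 and 12647 in wild-type livers. Both genotypes were tightly grouped and apart. Apoc1 was 1.20-fold lower in knock-in livers (log2 change -0.26 ± 0.06, limma adjusted p = 0.0136), with an adjusted p of 0.0528 without KI1 and 0.0611 without WT6, within a range of 0.00527 to 0.0611. The number of apolipoproteins called lower was 1 without KI1 or WT6 and 2 without WT2 or WT4.

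The other 8 apolipoproteins did not pass the test. Apom, a carrier of sphingosine 1-phosphate on HDL, read 1411, 1889 and 1149 in knock-in livers, against 2551, 1872 and 2351 in wild-type livers. KI3 and WT4 overlapped, and the log2 change was -0.62 ± 0.19 (limma adjusted p = 0.0534). Without KI3 the adjusted p was 0.00955, and it also passed after quantile normalization (0.0481), with a filter at the 50th percentile (0.0389) and with array weights (0.0124), over a range of 0.00955 to 0.161. Apoe, the ligand for remnant uptake, read 16303, 16767 and 16545 in knock-in livers, against 18509, 17648 and 18456 in wild-type livers. The genotypes did not overlap, yet the log2 change was only -0.14 ± 0.05 (limma adjusted p = 0.0799), and it was called with arrays centred on their medians (adjusted p = 0.0385) or weighted (0.0328), over a range of 0.0328 to 0.233. Apoa4, made in mouse liver and gut and linked to VLDL loading, read 5374, 4666 and 3988 in knock-in livers, against 8982, 5217 and 5962 in wild-type livers. WT2 stood above the rest, the ranges overlapped, and the log2 change was -0.49 ± 0.20 with an interval of -0.97 to -0.02 (limma adjusted p = 0.121).

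Apoa1, the core protein of HDL, read 16385, 15805 and 15921 in knock-in livers, against 17086, 16215 and 17092 in wild-type livers. Those values overlapped and gave a log2 change of -0.07 ± 0.05, with an interval of -0.19 to 0.05. Apoc3, an inhibitor of triglyceride clearance, read 12851, 13094 and 12601 in knock-in livers, against 13673, 14587 and 13471 in wild-type livers, and its change of -0.11 ± 0.06 was not called (limma adjusted p = 0.191) although the genotypes did not overlap. Apoa5, which aids triglyceride clearance, changed by 0.11 ± 0.08 with an interval of -0.07 to 0.28, Apoc4 by -0.24 ± 0.18 with an interval of -0.66 to 0.19, and Apoh, beta-2-glycoprotein I, by 0.04 ± 0.06 with an interval of -0.09 to 0.17, or by -0.01 with arrays centred on their medians. In the order of protein-coding genes Apoa1, Apoc3, Apoa4 and Apoa5 follow each other on chromosome 9, and limma called 0 of these 4, with Apoa4 alone at an unadjusted p below 0.05. Apoc2, Apoc4, Apoc1 and Apoe follow each other on chromosome 7, where Apoc1 alone among the 3 measured was called. Apoa1, Apoa2, Apoc1, Apoc3 and Apoe were brighter than 99.7% or more of all probe sets, and the highest value of each array lay between 23345 and 24988.

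**Figure D2:**
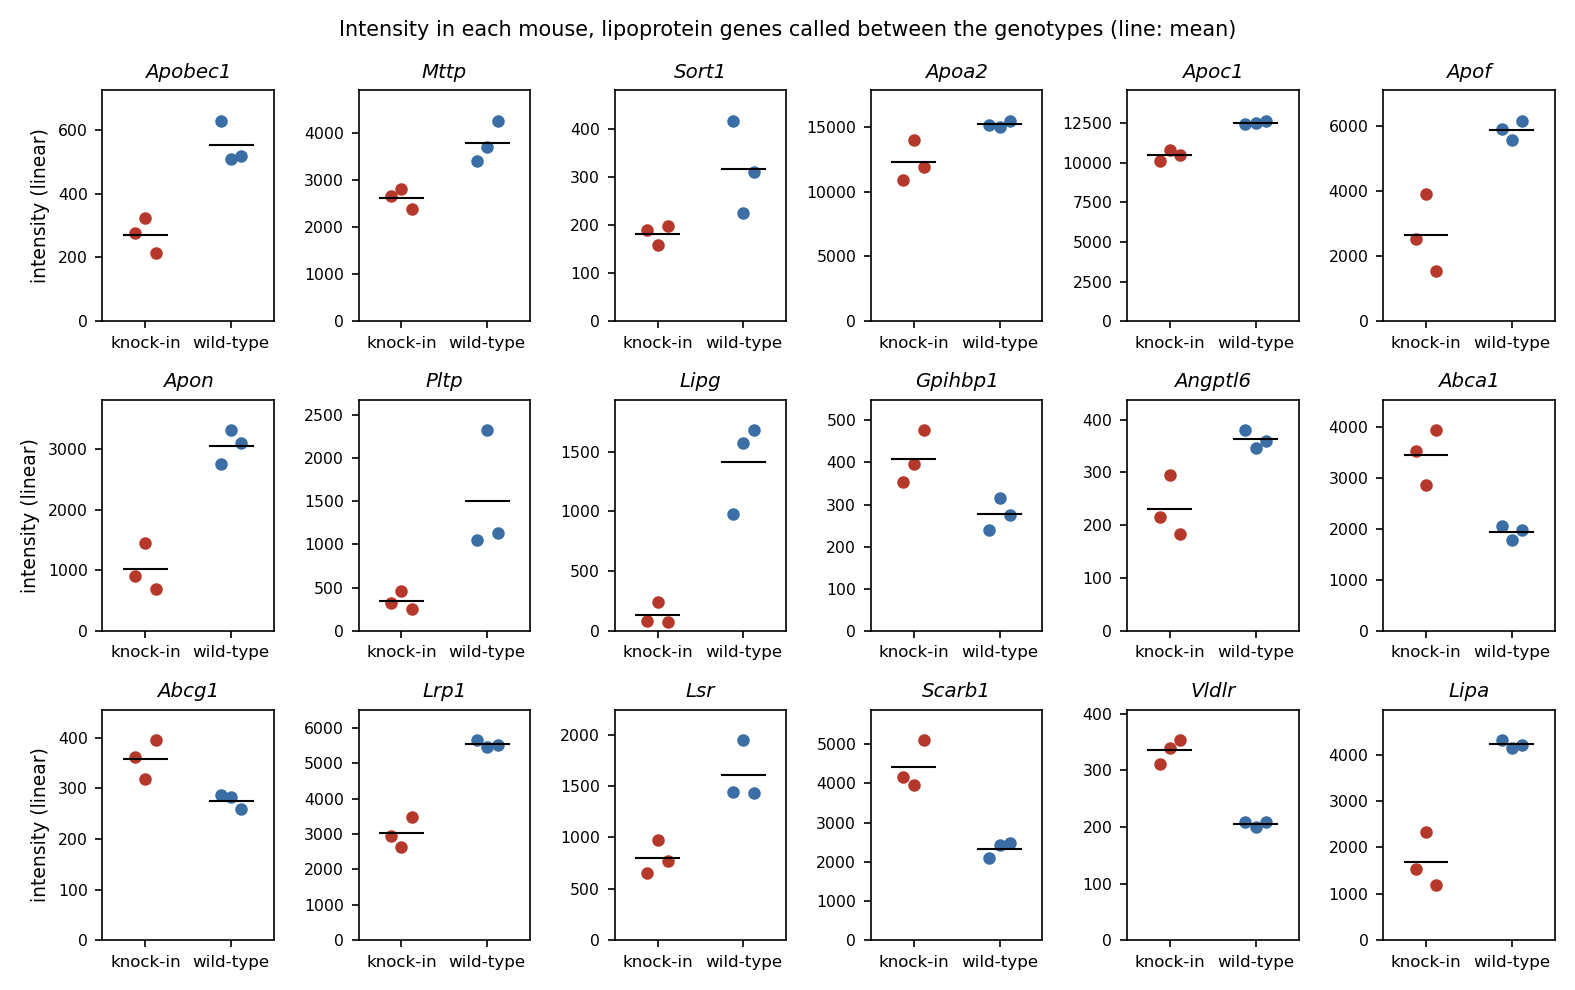
Linear intensity (y axis, starting at 0) in each mouse for the 18 called lipoprotein genes, with knock-in mice (red) left of wild-type mice (blue) and a line at each mean. The genotypes do not overlap in any panel, with Lipg at 72 to 242 in knock-in and 978 to 1682 in wild-type livers. The panels were picked by the test on these same values, which favours separation, and 41.1% of all probe sets tested do not overlap.

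The remodelling genes moved both ways. Of 10 genes 3 rose, 3 fell and 4 were not called, and the median log2 change was 0.18. Over all probe sets tested, 14.9% were called higher and 10.9% lower. The plasma remodelling enzymes of HDL held the largest fall of the list. Lipg encodes endothelial lipase, a phospholipase that acts on HDL and is made in liver as well as in endothelium. It read 83, 242 and 72 in knock-in livers, against 978, 1572 and 1682 in wild-type livers. The highest knock-in mouse lay far below the lowest wild-type mouse. Lipg averaged 132 ± 95.1 in knock-in and 1411 ± 379 in wild-type livers and was 10.6-fold lower in knock-in livers (log2 change -3.41 ± 0.41, limma adjusted p = 0.00166). The change lay between -3.90 and -3.12 with any 1 mouse left out and was -2.98 with a pseudocount of 64. Pltp encodes the phospholipid transfer protein that moves surface lipid from VLDL to HDL. Its intensity was 325, 463 and 251 in knock-in livers, against 1056, 2324 and 1132 in wild-type livers. WT4 was high, but all 3 wild-type mice lay above all knock-in mice. Pltp averaged 346 ± 108 in knock-in and 1504 ± 711 in wild-type livers and was 4.04-fold lower in knock-in livers (log2 change -2.02 ± 0.33, limma adjusted p = 0.00479). Lcat, the enzyme that esterifies cholesterol on HDL, read 7878, 8681 and 7040 in knock-in livers, against 7863, 7734 and 7955 in wild-type livers. The knock-in mice lay on both sides of the wild-type ones, with a log2 change of 0.00 ± 0.09 and an interval of -0.20 to 0.20.

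The sterol exporters rose. Abca1 encodes the transporter that loads lipid onto apolipoprotein A-I to form HDL, and its promoter is printed above. It read 3529, 2865 and 3937 in knock-in livers, against 2052, 1783 and 1976 in wild-type livers. All knock-in values were the higher ones, with means of 3444 ± 541 in knock-in and 1937 ± 139 in wild-type livers, a 1.76-fold rise (log2 change 0.82 ± 0.13, limma adjusted p = 0.00433). Abcg1, which exports sterol to mature HDL, read 361, 318 and 396 in knock-in livers, against 286, 282 and 258 in wild-type livers. The gap between the genotypes was narrow, and the 1.28-fold rise (log2 change 0.36 ± 0.11, limma adjusted p = 0.0483) was lost after quantile normalization (adjusted p = 0.081), with centred arrays (0.0835), without the filter (0.0613), and without any 1 of the mice except KI3 (up to 0.163), over a range of 0.0185 to 0.163.

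Of the genes around lipoprotein lipase, the anchor protein was called and the lipase was not. Gpihbp1 encodes the protein that carries lipoprotein lipase to the capillary lumen. It read 354, 397 and 477 in knock-in livers, against 240, 315 and 275 in wild-type livers. The genotypes lay apart, with a 1.45-fold rise in knock-in livers (log2 change 0.54 ± 0.14, limma adjusted p = 0.0306). Its adjusted p was 0.0799 without KI5, 0.104 without WT2 and 0.0851 without WT6, within a range of 0.0212 to 0.104, and without KI5 or WT6 a single remodelling gene was called higher. Lpl, the lipase itself, is low in adult liver as background knowledge. Its intensity was 272, 147 and 170 in knock-in livers, against 143, 90 and 89 in wild-type livers. The lowest knock-in mouse lay just above the highest wild-type mouse. The log2 change of 0.77 ± 0.24 missed the threshold (limma adjusted p = 0.0545). It passed with a filter at the 50th percentile (0.0388), with array weights (0.0214), without KI3 (0.029) and without WT2 (0.0369), over a range of 0.0214 to 0.153. Markers of adipocytes, which are rich in Lpl, were called by limma in 0 of 6 tested (1 at an unadjusted p below 0.05), with summed levels over all 7 measured of 944 to 1034 in knock-in and 608 to 1032 in wild-type livers and Adipoq at 36 to 38 on every array. Plin4 was the largest part of each sum, at 497 to 564 in knock-in livers, against 159, 520 and 582 in WT2, WT4 and WT6. The lowest wild-type sum was that of WT2.

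Angptl6, a secreted angiopoietin-like protein of hepatocytes, read 215, 294 and 183 in knock-in livers, against 380, 347 and 360 in wild-type livers. The wild-type mice were close together and above all knock-in mice, and Angptl6 was 1.56-fold lower in knock-in livers (log2 change -0.64 ± 0.16, limma adjusted p = 0.0247). Without any 1 mouse other than KI3 its adjusted p lay between 0.0586 and 0.0868, over a range of 0.00246 to 0.0868. The lipase inhibitor Angptl4 read 3355, 3195 and 2400 in knock-in livers, against 1616, 2141 and 2783 in wild-type livers, with overlap and a log2 change of 0.47 ± 0.21 (interval -0.02 to 0.96). Angptl8, a feeding-induced partner in lipase inhibition, read 714, 405 and 514 in knock-in livers, against 1173, 663 and 631 in wild-type livers, again with overlap and a change of -0.56 ± 0.28 (interval -1.21 to 0.09). Both inhibitors thus remained uncalled (limma adjusted p = 0.148 and 0.19).

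All 5 clearance genes were called under every setting tried, 3 lower and 2 higher, with a median log2 change of -0.88. In the fit as reported, 10.9% of all probe sets tested were called lower and 14.9% higher. The remnant receptors and the lysosomal lipase fell. Lrp1 encodes the large endocytic receptor of hepatocytes and macrophages that takes up remnants carrying apolipoprotein E. It read 2945, 2646 and 3475 in knock-in livers, against 5675, 5460 and 5533 in wild-type livers. The wild-type mice differed little among themselves, and all knock-in mice lay far below. Lrp1 averaged 3022 ± 420 in knock-in and 5556 ± 109 in wild-type livers and was 1.85-fold lower in knock-in livers (log2 change -0.88 ± 0.11, limma adjusted p = 0.00168). Lsr encodes the lipolysis-stimulated lipoprotein receptor, another hepatic remnant receptor. Its values were 652, 974 and 774 in knock-in livers, against 1441, 1953 and 1431 in wild-type livers. No knock-in mouse reached the wild-type range, and the log2 change was -1.0 ± 0.18 (limma adjusted p = 0.00705). Lipa encodes lysosomal acid lipase, which frees fatty acids and cholesterol from endocytosed particles. It read 1527, 2331 and 1194 in knock-in livers, against 4327, 4135 and 4219 in wild-type livers. The wild-type values were nearly equal and the knock-in values scattered below them. Lipa averaged 1684 ± 585 in knock-in and 4227 ± 96.2 in wild-type livers and was 2.59-fold lower in knock-in livers (log2 change -1.37 ± 0.22, limma adjusted p = 0.00425).

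The HDL receptor and the VLDL receptor rose. Scarb1 encodes the receptor for selective uptake of HDL cholesterol. It read 4159, 3962 and 5121 in knock-in livers, against 2106, 2438 and 2474 in wild-type livers. The ranges were far apart, with means of 4414 ± 620 in knock-in and 2339 ± 203 in wild-type livers and a 1.87-fold rise (log2 change 0.91 ± 0.12, limma adjusted p = 0.00232). Vldlr, the fourth gene whose promoter is printed above, encodes a receptor for triglyceride-rich particles that is sparse in unstressed liver. Its intensity was 311, 340 and 354 in knock-in livers, against 209, 199 and 209 in wild-type livers. Both genotypes varied little, and Vldlr was 1.58-fold higher in knock-in livers (log2 change 0.66 ± 0.09, limma adjusted p = 0.0026).

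Set against its own wild-type mean, each gene also showed how the individual mice differed. The median over the 31 genes was -0.28, -0.14 and -0.31 in KI1, KI3 and KI5, against 0.01, -0.03 and 0.02 in WT2, WT4 and WT6, as log2 differences from the wild-type mean. KI3 was the knock-in mouse nearest to the wild-type mean for 11 of the 13 genes that fell and for 3 of the 5 that rose. Among the genes that fell, KI5 was nearest for Sort1 and Lrp1. The clearance medians were -0.91, -0.70 and -0.67 in the 3 knock-in mice, and the assembly medians were -0.58, -0.58 and -0.63.

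**Figure D3:**
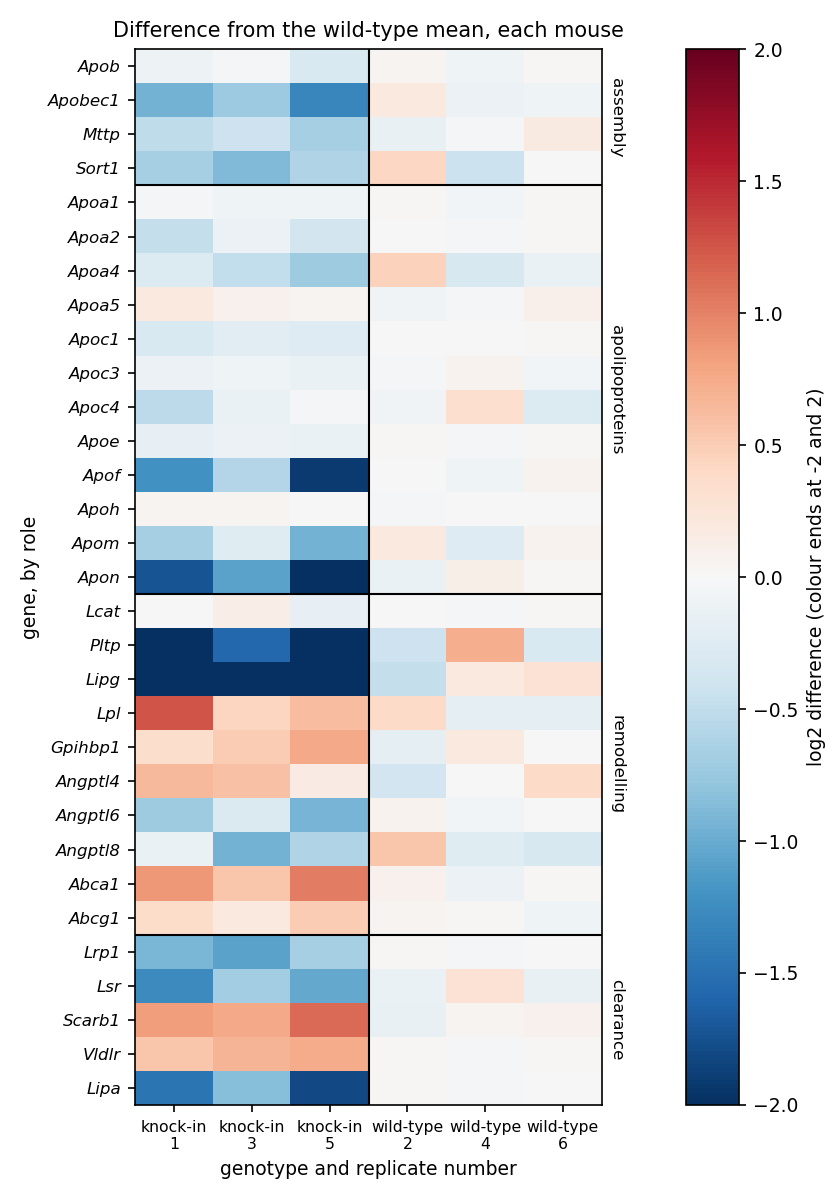
Log2 difference of each mouse (columns, knock-in left of wild-type) from the wild-type mean for the 31 lipoprotein genes (rows, grouped by role), with red above and blue below the mean and colours ending at -2 and 2. KI3 lies nearest to the wild-type mean for 11 of the 13 genes that fell, which shows as a paler blue except for Lipg, where all 3 knock-in mice lie past -2.

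Other genes of the pathway were taken from 5 lists of 70 genes, of which 62 were measured and 12 rose, 25 fell and 25 did not pass. Percentages called in the background, for these lists together and for each one below, were 14.9% higher and 10.9% lower as above. The lists' median log2 change was -0.32. Called lower were 11 of them without KI1, 14 without WT2 and 15 without WT6. Among 14 genes of VLDL lipidation and ER export 7 fell and 1 rose, with a median of -0.52. The number that fell was 2 without KI1, 3 without WT2 or WT6, 4 without KI5 or WT4, and 11 without KI3, with array weights or at a threshold of 0.1. Cideb, which promotes VLDL lipidation and transport, read 3890, 4879 and 2799 in knock-in livers, against 8123, 8453 and 8078 in wild-type livers. The genotypes were far apart, and Cideb fell by 1.12 ± 0.18 on the log2 scale (limma adjusted p = 0.00455). Dgat2, an enzyme of triglyceride synthesis, changed by -0.49 ± 0.08 (limma adjusted p = 0.00438). Tm6sf2, which aids lipid loading of VLDL, changed by -0.91 ± 0.19 and lost its call without KI1 (adjusted p = 0.0534). Mia2, an ER export factor, changed by -0.56 ± 0.12 and lost its call without KI1 or WT2 or WT6 (adjusted p up to 0.0516). The gene of this list that rose, singled out after its values were seen, was Dgat1, also an enzyme of triglyceride synthesis. Its change of 0.45 ± 0.13 (limma adjusted p = 0.0351) was lost with centred arrays and without any 1 mouse except KI3 (adjusted p up to 0.107).

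Among 11 genes of HDL-borne proteins and sterol export 6 fell and 2 rose, with a median of -0.35. The number that fell was 2 without KI1 or WT2 and 3 without WT6, and the number that rose was 0 without KI1, WT4 or WT6, 0 with centred arrays or without the filter, and 1 without WT2. Saa4, the constitutive serum amyloid A carried on HDL, read 1450, 1358 and 800 in knock-in livers, against 4310, 3796 and 4088 in wild-type livers. No knock-in mouse came near the wild-type range, and the log2 change was -1.79 ± 0.21 (limma adjusted p = 0.00161). Pcyt1a, the rate-setting enzyme of phosphatidylcholine synthesis, changed by -0.67 ± 0.11 (limma adjusted p = 0.00569). Pon3, an HDL lactonase, changed by -1.02 ± 0.22 and lost its call without KI1 or WT2 (adjusted p up to 0.0599). Abcb4, the phospholipid exporter into bile, changed by -0.78 ± 0.18 and lost its call without KI1 or KI5 or WT2 or WT6 (up to 0.0718). The genes that rose were Abcg5 and Abcg8, whose proteins pair to export sterol into bile. Their log2 changes were 0.60 ± 0.17 and 0.88 ± 0.26 (limma adjusted p = 0.0399 and 0.0421). Both calls were lost with centred arrays, without the filter and without KI1 or WT4 or WT6, Abcg5 also without KI5 and Abcg8 without WT2 (adjusted p up to 0.117).

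Among 5 genes of lipase maturation and inhibition 1 rose and 1 fell. Furin, a protease that cleaves and inactivates endothelial and lipoprotein lipase, rose by 0.71 ± 0.14 on the log2 scale (limma adjusted p = 0.0095). Lmf1, the ER factor needed to fold these lipases, fell by 0.42 ± 0.09 (limma adjusted p = 0.0118), a call lost without KI1 or WT2 (up to 0.0543). Among 11 genes of receptor-mediated and other uptake 2 rose and 3 fell, with a median of -0.20, and 5 fell after quantile normalization or centring, with a stricter filter or array weights, or at a threshold of 0.1. Pdzk1, the scaffold that holds the Scarb1 protein at the hepatocyte surface, read 153, 175 and 134 in knock-in livers, against 394, 308 and 424 in wild-type livers. Its genotypes were apart, and Pdzk1 fell by 1.20 ± 0.15 (limma adjusted p = 0.00172) while Scarb1 rose. Lrpap1, the chaperone of Lrp1 and related receptors, changed by -0.70 ± 0.11 (limma adjusted p = 0.00433). Ext1, which elongates heparan sulphate chains, changed by 0.65 ± 0.10 (limma adjusted p = 0.00415). Stab2, a scavenger receptor of sinusoidal endothelium, changed by -0.37 ± 0.09, with its call lost without KI1 or WT2 or WT6 (up to 0.0909). Mylip, a ubiquitin ligase that acts on lipoprotein receptors, was called at the threshold (log2 change 0.63 ± 0.20, limma adjusted p = 0.0499) with overlapping genotypes. That call was lost after quantile normalization, centring or a robust prior, without the filter, and without any 1 mouse except KI3 (up to 0.154).

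Among 21 transcription regulators of lipoprotein genes 6 rose and 8 fell, with a median of -0.29, and without KI1 5 fell. Hnf4a, the nuclear receptor that acts on many apolipoprotein genes, read 8948, 8707 and 9461 in knock-in livers, against 4529, 5192 and 5479 in wild-type livers. The genotypes were far apart, with a log2 change of 0.84 ± 0.09 (limma adjusted p = 0.00108). Rora, a nuclear receptor known to act on Apoa5 and Apoc3, changed by 0.90 ± 0.10 (limma adjusted p = 0.00112), and the coactivator gene Ppargc1a by 2.30 ± 0.18 and 2.42 ± 0.15 on its 2 probe sets. Creb3l3, a liver transcription factor that acts on Apoa4 and Apoc2, read 455, 714 and 321 in knock-in livers, against 1518, 1275 and 1617 in wild-type livers. All knock-in values were lower, with a log2 change of -1.60 ± 0.26 (limma adjusted p = 0.00477). Ppara, the fatty acid receptor, changed by -1.56 ± 0.19 (limma adjusted p = 0.00165). Nr1h3, the liver X receptor known to drive Abca1 and Abcg1, changed by -0.55 ± 0.13 (limma adjusted p = 0.0178), which was lost without KI1 or any 1 of the 3 wild-type mice (up to 0.0688), while Abca1 rose.

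**Figure D4:**
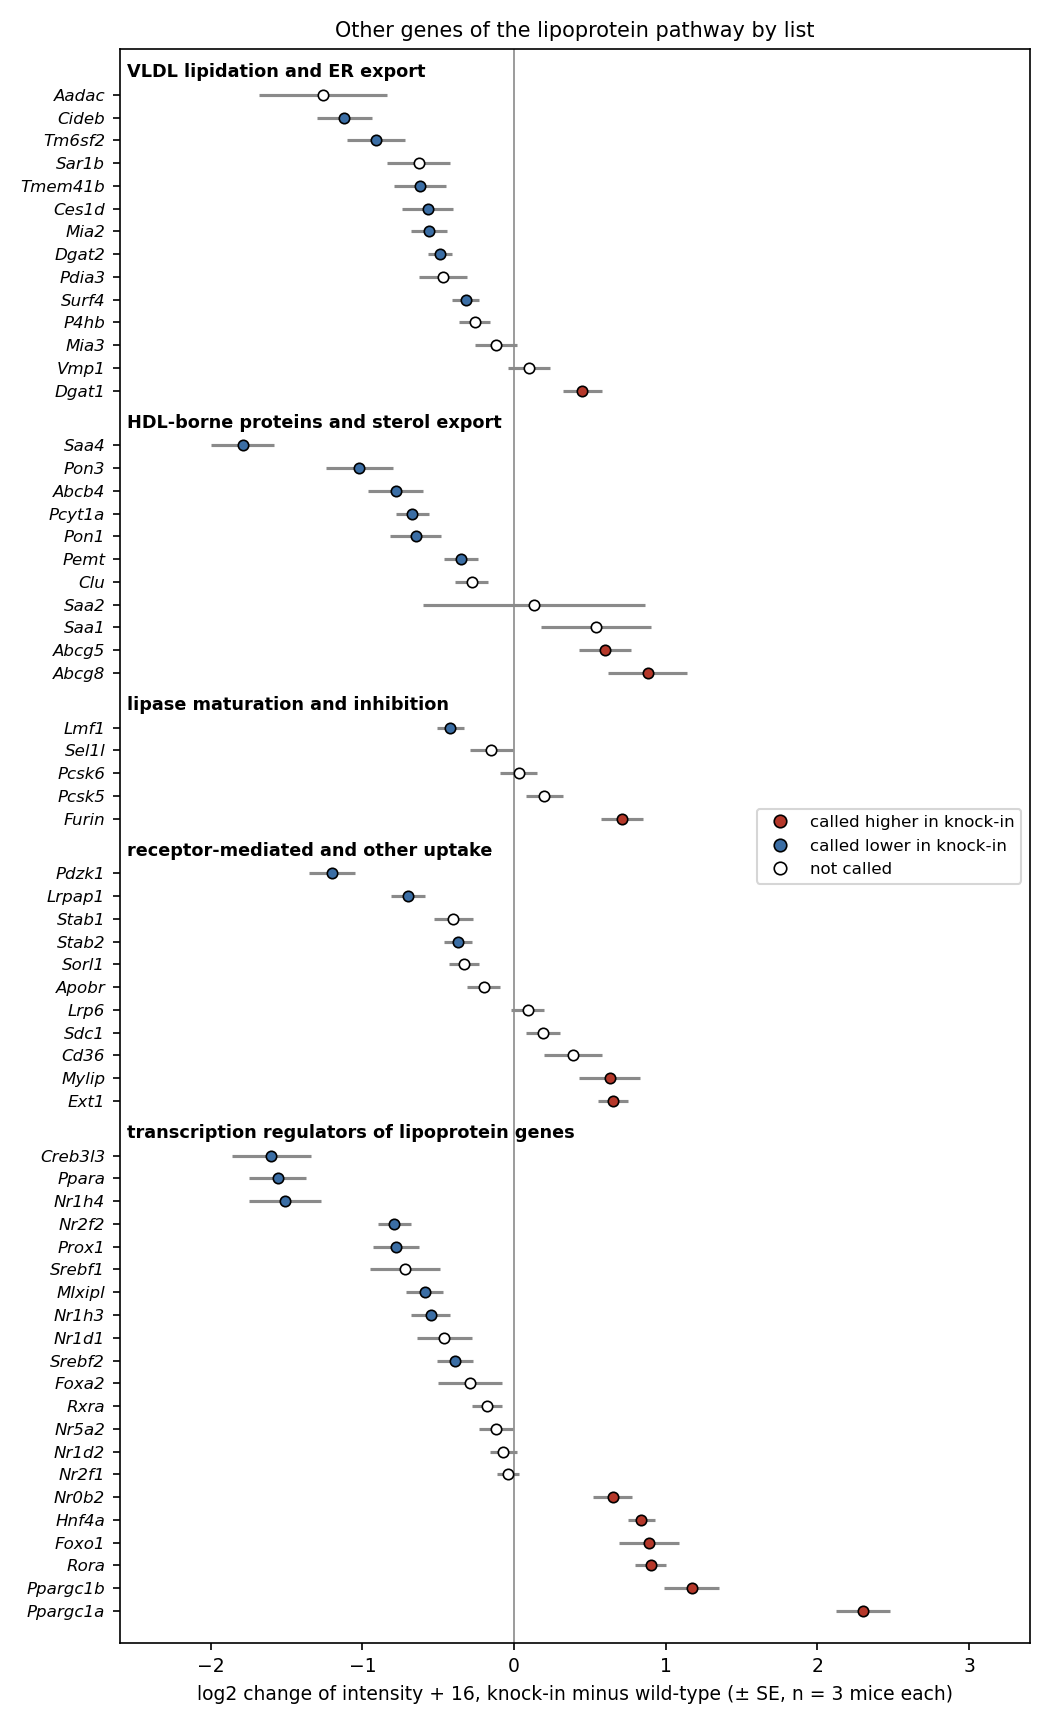
Log2 change of intensity + 16, knock-in minus wild-type (x axis, with standard errors, 3 mice per genotype), for the 62 other genes of the lipoprotein pathway grouped by list (y axis), with red for called higher, blue for called lower and white for not called. VLDL lipidation genes lie mostly left of 0, and Ppargc1a lies farthest right at 2.30.

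Markers of the cell types a liver piece can hold were measured beside these genes. Of the 70 tested, limma called 22.9%, 10% as higher and 12.9% as lower. The shares over all probe sets tested were 25.9%, 14.9% and 10.9%. Markers pooled were thus called less often in total and as higher, and slightly more often as lower. The lists differed, with 50% of endothelial and 42.9% of neutrophil markers called, against 0% of adipocyte, cholangiocyte and pancreatic acinar markers. Of 10 hepatocyte markers Arg1 rose and Asgr1 fell, and the sum of the list was 102367 to 113711 in knock-in and 106421 to 110551 in wild-type livers. Asgr1 lost its call without any 1 mouse except KI3 (adjusted p up to 0.0861). Of 12 Kupffer cell and macrophage markers 0 rose by limma and Adgre1 and Folr2 fell. Their log2 changes were -1.06 ± 0.32 and -1.07 ± 0.26 (limma adjusted p = 0.0449 and 0.0224). At an unadjusted p below 0.05, 1 was higher and 5 were lower, a level that 37.8% of all probe sets reached in either direction. Of the 12 changes 11 were negative, with a median of -0.37. Adgre1 was no longer called under 7 settings (no filter, a robust prior, array weights, or without KI1 or KI5 or WT2 or WT4), and Folr2 was not without KI1 or WT2. Summed, the macrophage list reached 3884 to 6776 in knock-in and 5780 to 9892 in wild-type livers, and its lowest single value was 88. Macrophages express Lipa, Lrp1, Abca1, Abcg1 and Pltp, and the part of their number in these results was not tested. Of 10 endothelial markers Lyve1 and Emcn rose and Kdr, Clec4g and Fcgr2b fell, with sums of 6108 to 8103 in knock-in and 7238 to 7859 in wild-type livers and a lowest value of 198. Each of these 5 lost its call under at least 1 setting. Their part in the values of Gpihbp1, Lipg and Stab2 was not tested. Of 10 stellate cell and fibroblast markers Dcn rose and Lrat and Colec11 fell. Sums were 8205 to 9789 in knock-in and 7459 to 8678 in wild-type livers, and Dcn alone made up most of each. Of the 10 changes 7 were negative, with a median log2 change of -0.16. Colec11 lost its call without KI1, KI5, WT2 or WT6 (adjusted p up to 0.0804). Of 7 neutrophil markers tested S100a8, Retnlg and Mmp9 rose, while S100a9, Ly6g, Csf3r and Camp were not called. The sum over all 8 measured was 591 to 608 in knock-in and 435 to 495 in wild-type livers, with a lowest value of 30. The called neutrophil markers were dim, at 34 to 102, against array medians of 97 to 104. Mmp9 lost its call without KI1, KI5, WT2 or WT4 (adjusted p up to 0.0576). Of 6 lymphocyte markers tested Cd79b fell. The sum over all 9 measured was 516 to 566 in knock-in and 586 to 642 in wild-type livers, with a lowest value of 14. Cholangiocyte and pancreatic acinar markers were called by limma in 0 of 5 and 0 of 4 tested, also at an unadjusted p below 0.05. The lowest value of any probe set was 7 on every array, so a value above 0 does not show that a marker was detected. Some markers were dim, such as Cd79a at 14 to 28.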

How the data were processed

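Liver RNA of 6 mice was hybridised to 1 array per mouse. Per the labels' protocols, total RNA was purified on RNeasy columns, reverse transcribed with a SuperScript kit and transcribed in vitro with a biotin label. The authors deposited linear intensity values, 1 per probe set and array. The method behind these summaries, normalization included, was not stated in the labels or file headers. No scanner files were analysed. The number of arrays limits the precision. P-values set the difference between the genotypes against the spread between mice, which limma moderates across probe sets.

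Gene names came from the platform annotation, where 21789 had 1 symbol, 1621 several and 12102 none listed. Symbols were compared with RefSeq (GRCm38.p6), and 0 were updated. Intensities were transformed as log2(value + 16), and the 26634 probe sets with a mean at or above the 25th percentile were fitted with limma 3.58.1 in R 4.3.3 (lmFit, eBayes with trend), two-sided, with Benjamini-Hochberg adjustment over all of them and a threshold of 0.05. Folds refer to intensity + 16, which makes those of dim genes too small. The procedure was tested on simulated data. Promoter windows came from RefSeq. Figures were drawn with matplotlib 3.10.9.

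The lipoprotein genes and all lists were chosen with earlier results of these data known. All 31 lipoprotein genes are named, with Lmna, up to 4 genes per pathway list by smallest p, regulators set beside a lipoprotein gene, and called markers. Dgat1, Abcg5, Abcg8, Mylip and the markers were singled out after their values were seen. A pathway gene with several probe sets is represented by the brightest. As alternatives, each mouse was left out in turn, the pseudocount was set to 1 or 64, arrays were quantile normalized, centred on their medians or weighted, the filter was dropped or raised to the 50th percentile, the eBayes prior was fitted without its trend or robustly, and the threshold was raised to 0.1.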

Additional observations from a re-analysis of the deposited data

How the results depend on the processing

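Under the settings that keep all 6 mice, the counts and medians of the lipoprotein genes, of each role and of the other pathway genes stayed within 1.5 times the main count or within the spread between mice. With any 1 mouse left out, 8 to 13 lipoprotein genes were called lower and 3 to 6 higher, 1 to 5 apolipoproteins lower, 1 to 4 remodelling genes higher, and 11 to 31 other pathway genes lower. The median log2 change ran from -0.28 to -0.18 for apolipoproteins, from -0.98 to -0.79 for clearance and from -0.74 to -0.56 for assembly. Over all probe sets 2422 to 4271 were called higher and 1814 to 3454 lower, against 3974 and 2914 with all mice. The fits without 1 mouse hold 5 arrays. Centring arrays on their medians lowered log2 changes by 0.05 and gave 3119 higher and 3424 lower calls, so that 47.7% of calls were higher, against 57.7% in the fit as reported. Apoh changed sign to -0.01 with centred arrays, and Lcat, at 0.00, to 0.07 and 0.01 without KI5 or WT6, with a range of -0.08 to 0.07, in each case uncalled. None of the 18 called lipoprotein genes changed direction under the 16 settings. The mean over the probe sets of a gene equals the reported value for the lipoprotein genes, which have 1 each. No paired analysis was possible because the genotypes share no replicate numbers. The causes of these shifts were not tested. No detection calls were used here, which limits what dim probe sets such as Adipoq can show.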
